A study of Mus musculus with 8 samples.

Results

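Auts2 and 9 annotated noncoding genes that lie inside it on mouse chromosome 5 were examined, 10 genes of the 55487 in the count table. The 9 are Gm42989, Gm42995, Gm42993, Gm42442, Gm42443, Gm43483, Gm42588 and Gm42589, predicted transcripts on the strand of Auts2, and 2810432F15Rik, an antisense transcript. The cells were E14-Tg2a mouse embryonic stem cells, a feeder-independent line, differentiated in serum-free medium towards precardiac mesoderm and harvested at day 6. 4 libraries came from the parental line with wild-type Tbx1 and 4 from line 4D, a single Tbx1-/- line of the same background, so that the genotype and anything else particular to line 4D cannot be told apart. Apart from genotype, both groups carried the same label of in vitro differentiation, and RNA was counted with QuantSeq, which reads a short tag near the 3′ end of polyadenylated RNA.

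The 10 genes had been picked on the Tbx1-/- against parental contrast of these same libraries. Their differences between the lines are therefore given as a description, with no test. All 10 passed the filter on low counts, among 13280 genes that did. They were named from a window of chromosome 5 that begins just before Gm42589 and ends just beyond Gm43188. Auts2 runs past both ends of it, Gm27266 (0 counts) lies outside at one end and Gm43186 (48 counts in all libraries) at the other, and not every gene within it was listed.

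AUTS2 is a nuclear protein that joins a variant Polycomb repressive complex 1 built on PCGF3 or PCGF5. In neural cells it recruits the acetyltransferase EP300 and casein kinase 2, and the complex then takes part in activating genes rather than silencing them. A cytoplasmic pool acts through the small GTPases RAC1 and CDC42 on the actin cytoskeleton, and disruption of the human gene causes a syndrome of intellectual disability. The gene is known for its great length and very long first introns. Most of the noncoding genes annotated inside it are of the class TEC which GENCODE gives to single-exon models with a polyadenylation feature and no further experimental proof.

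In the GENCODE M21 annotation (GRCm38), Auts2 (ENSMUSG00000029673.17) occupied chr5:131437333-132543344 on the minus strand, 1106012 bases. Its transcript Auts2-207 spans the whole gene with 19 exons. 26 annotated genes lay wholly inside the gene body, and none of the 26 shared a base with an annotated Auts2 exon. 22 of them were on the strand of Auts2 and 4 on the opposite strand. The 22 same-strand genes were all single-exon TEC models in 4 introns: 6 in intron 1 (282378 bases), 2 in intron 2 (208514 bases), 8 in intron 4 (260200 bases) and 6 in intron 5 (236887 bases). Since a same-strand gene inside an intron has the sequence of the Auts2 precursor RNA, a separate transcript and a tag primed within that precursor cannot be told apart in a table of counts.

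The sequences below show the longest run of A in each of 5 same-strand transcripts, because a 3′ tag method starts from oligo-dT and can prime on a poly(A) tail or on a run of A inside an RNA. Each is the RNA strand, written 5′ to 3′ from the GENCODE M21 transcript (GRCm38, minus strand), with up to 40 bases on each side of the run and the run in capitals.
Gm42442, chr5:131697453-131697542: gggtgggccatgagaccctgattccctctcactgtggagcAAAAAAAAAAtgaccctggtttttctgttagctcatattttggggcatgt
Gm43483, chr5:131641396-131641485: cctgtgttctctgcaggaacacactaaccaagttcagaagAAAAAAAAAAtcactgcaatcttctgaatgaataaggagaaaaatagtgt
Gm42993, chr5:132021266-132021352: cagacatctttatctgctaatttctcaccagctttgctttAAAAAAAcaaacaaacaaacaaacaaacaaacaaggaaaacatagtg
Gm42443, chr5:131695304-131695388: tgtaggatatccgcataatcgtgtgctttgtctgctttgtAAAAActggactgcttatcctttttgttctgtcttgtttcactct
Gm42991, chr5:131975737-131975828: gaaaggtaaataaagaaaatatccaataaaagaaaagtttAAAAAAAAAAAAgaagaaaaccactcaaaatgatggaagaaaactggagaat
The longest run was 10 bases in Gm42442 and Gm43483, 7 in Gm42993, 5 in Gm42443 and 12 in Gm42991, a neighbour that is not among the 10 genes. A run of 8 or more A on the transcribed strand occurred in 8 of the 22 same-strand transcripts and in 2 of the 8 listed ones. The polyadenylation hexamer AATAAA, searched on the transcribed strand, occurred in 15 of the 22 and in 6 of the 8. Cut into windows of 300 bases, the TEC transcripts inside Auts2 held a run of 8 A in 5.10% of 157 windows and all other TEC transcripts of the annotation in 5.65% of 21113. AATAAA stood in 14.65% of the windows inside Auts2 and in 19.64% of the others. On the opposite strand, read as 8 T and TTTATT, the shares were 12.1% and 29.94% inside Auts2 and 7.86% and 24.52% elsewhere. A run of A can overlap the hexamer, and a match is a description of the letters only: where the tags of each gene fell was not measured here.

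The libraries held 4967442 to 6293907 counts in the parental group and 3803561 to 5775674 in the Tbx1-/- group. The targeted gene Tbx1, on another chromosome, had 39, 65, 38 and 22 counts in the parental libraries and 3, 0, 1 and 0 in the Tbx1-/- libraries (log2 fold change -5.08 ± 0.88 SE). Tbx1-/- library 4 stood apart: its Pearson correlation across genes, of log2 CPM (counts per 1000000 counts of the TMM-scaled library size), with the other 3 Tbx1-/- libraries was 0.877 to 0.881, against 0.933 to 0.945 between the other pairs within a line. It was also the shallowest, and the ribosomal RNA gene CT010467.1 took 17.7% of its counts, against 8.90% to 13.0% in the other 7. The labels call the libraries biological replicates and do not say how the cultures were separated. Over all 13280 tested genes, 188 (1.42%) passed an adjusted p of 0.05 in edgeR's quasi-likelihood test in either direction, and 99 (0.745%) did so with a higher level in Tbx1-/- cells. In 463 genes (3.49%) all 4 Tbx1-/- libraries lay above all 4 parental libraries.

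The host gene Auts2 had levels that overlapped between the lines. It stood at 258, 264, 311 and 327 CPM in parental libraries 1 to 4, and 327, 316, 360.0 and 322 CPM in Tbx1-/- libraries 1 to 4. Parental libraries 1 and 2 were the lowest, and parental library 4 lay within the Tbx1-/- range, so the ranges met. The means were 289.9 ± 33.9 and 331 ± 19.7 CPM (SD, n = 4 each), a log2 fold change of 0.19 ± 0.11 (SE). As these are bulk libraries, fewer cells with a transcript and less of it per cell cannot be told apart, here and below.

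**Figure D1:**
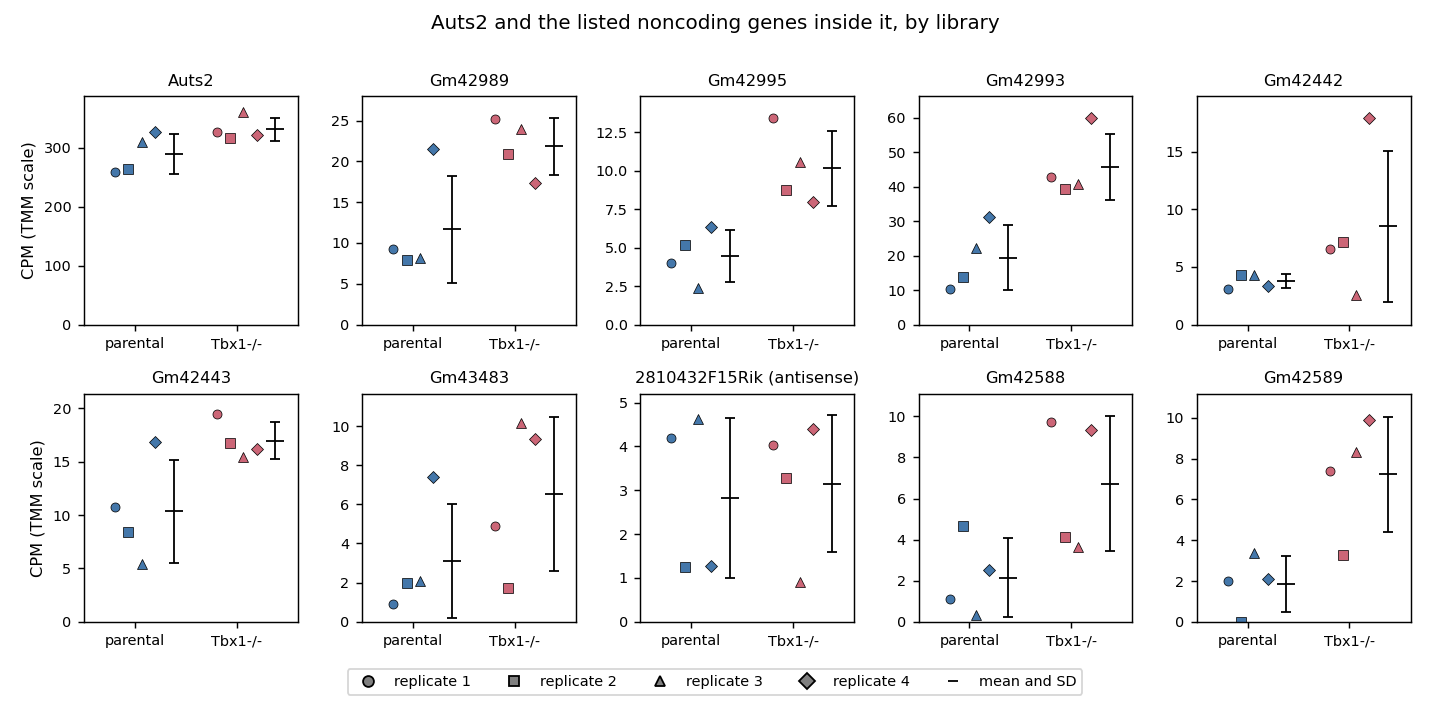
Level of Auts2 and the 9 listed noncoding genes in each library, in CPM on TMM-scaled library sizes (vertical axes from 0), for parental and Tbx1-/- cells, with marker shape for replicate number and mean with SD to the right of each group. The Auts2 groups overlap, while for Gm42993 and Gm42995 the 4 Tbx1-/- libraries lie above the 4 parental ones.

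The listed genes nearest to the start of Auts2 were Gm42989 in intron 1, Gm42995 in intron 2 and Gm42993 in intron 4, all TEC genes with no known function. Gm42993 (ENSMUSG00000105985.1, chr5:132015610-132022934), the longest of the listed noncoding genes by exonic length, had 10.4, 13.8, 22.3 and 31.2 CPM in parental libraries and 42.8, 39.4, 40.9 and 59.9 CPM in Tbx1-/- libraries. Every Tbx1-/- library was above every parental one, and Tbx1-/- library 4 was the highest of all. The log2 fold change was 1.24 ± 0.28 (SE), from 19.4 ± 9.32 to 45.8 ± 9.54 CPM (SD, n = 4 each).

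Gm42995 (ENSMUSG00000105495.1, chr5:132201839-132203168) had 4.00, 5.20, 2.39 and 6.32 CPM in parental libraries and 13.4, 8.72, 10.5 and 7.97 CPM in Tbx1-/- libraries. Its groups did not overlap either, with a log2 fold change of 1.19 ± 0.44 (SE). Gm42989 (ENSMUSG00000104994.1, chr5:132370376-132372681) had 9.27, 7.89, 8.14 and 21.5 CPM in parental libraries and 25.2, 20.9, 24.0 and 17.3 CPM in Tbx1-/- libraries. Parental library 4 lay above Tbx1-/- libraries 2 and 4, so these groups overlapped, and the log2 fold change was 0.91 ± 0.33 (SE).

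The other 6 listed genes lie in intron 5, in the 3′ part of the gene, 5 on the Auts2 strand and 1 opposite. Gm42443 (ENSMUSG00000105726.1, chr5:131694721-131695875) had 10.7, 8.43, 5.43 and 16.9 CPM in parental libraries and 19.5, 16.8, 15.4 and 16.2 CPM in Tbx1-/- libraries, a log2 fold change of 0.72 ± 0.34 (SE). Parental library 4 was again the high one of its group and lay inside the Tbx1-/- range. Gm42442 (ENSMUSG00000106557.1, chr5:131697221-131698353) had 3.09, 4.31, 4.31 and 3.37 CPM in parental libraries and 6.55, 7.19, 2.54 and 17.9 CPM in Tbx1-/- libraries. Tbx1-/- library 3 fell below all parental libraries and library 4 stood far above. Its log2 fold change was 1.16 ± 0.56 (SE) with all libraries and 0.52 without Tbx1-/- library 4.

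Gm43483, Gm42588 and Gm42589 rested on few counts. Gm43483 (ENSMUSG00000105289.1, chr5:131639948-131642807) had 5, 11, 13 and 35 counts in parental libraries and 29, 8, 56 and 34 in Tbx1-/- libraries, a log2 fold change of 1.09 ± 0.70 (SE). Gm42588 (ENSMUSG00000105584.1, chr5:131608297-131609593) had 6, 26, 2 and 12 counts in parental libraries and 58, 19, 20 and 34 in Tbx1-/- libraries, a log2 fold change of 1.64 ± 0.72 (SE). Gm42589 (ENSMUSG00000105470.1, chr5:131603654-131605404) had 11, 0, 21 and 10 counts in parental libraries and 44, 15, 46 and 36 in Tbx1-/- libraries, a log2 fold change of 1.93 ± 0.76 (SE). In each of the 3 at least 1 parental library lay above at least 1 Tbx1-/- library, and the spread within a line reached several fold. The 0 of Gm42589 in parental library 2 allows up to 0.538 CPM (3 counts of the scaled library size, counting error only).

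The antisense gene 2810432F15Rik (ENSMUSG00000104987.1, chr5:131615438-131625087, plus strand, 4 exons) lay closest to no difference among the listed noncoding genes. It had 23, 7, 29 and 6 counts in parental libraries and 24, 15, 5 and 16 in Tbx1-/- libraries, and both groups covered the same range. The log2 fold change was 0.14 ± 0.74 (SE) and lay between -0.11 and 0.47 when 1 library was left out, changing sign with which library that was. Its last exon overlaps the same-strand gene Gm42591. The deposited table was counted on 1 strand, per its name, which separates the strands as far as the library is stranded.

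Together, the 10 listed genes all had a positive log2 fold change, with a median of 1.12, against a median of 0.00 over all tested genes. 1 of the 10, Gm42993, was past the threshold that 1.42% of all genes passed (0.745% in the higher direction), and 2 of the 10 had groups that did not overlap in that direction, against 3.49% of all genes. Gm42993 missed the threshold when parental library 1, 2 or 3 or Tbx1-/- library 1, 3 or 4 was left out. Since the genes were picked on this contrast, nothing is read from these shares.

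The other 17 annotated genes inside Auts2 are not among the 10 and were found by position alone. They lie in the same gene body and the same libraries, so they are not independent of the listed genes, and their tests come from the same contrast. 16 of the 17 had at least 1 count, and 10 passed the low-count filter. All 10 had a positive log2 fold change, with a median of 0.89. In 4 of them (Gm42441, Gm42991, Gm43187 and Gm43188) every Tbx1-/- library lay above every parental one, against 3.49% of all tested genes. 1 of the 10 passed the test, against 0.745% of all tested genes called higher.

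That gene was Gm42991 (ENSMUSG00000106386.1, chr5:131972050-131975886), a TEC gene of intron 4 on the Auts2 strand. It had 14.4, 9.69, 12.0 and 14.1 CPM in parental libraries and 31.6, 27.2, 26.5 and 28.0 CPM in Tbx1-/- libraries. Both groups were tight and far apart: 12.5 ± 2.18 against 28.3 ± 2.25 CPM (SD, n = 4 each), a log2 fold change of 1.18 ± 0.24 (SE) with an adjusted p of 0.0131 in edgeR's quasi-likelihood test. The adjusted p ranged from 0.000391 to 0.0702 over the alternatives and missed 0.05 without parental library 2 (0.0702), without parental library 3 (0.056) and without Tbx1-/- library 1 (0.0558).

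Near the start of Auts2, in intron 1, Gm43187 had 9.46, 12.2, 10.9 and 8.22 CPM in parental libraries and 22.2, 15.3, 13.1 and 44.8 CPM in Tbx1-/- libraries (log2 fold change 1.21 ± 0.35 SE, adjusted p = 0.108 in edgeR's quasi-likelihood test). Tbx1-/- library 4 was its highest value. With no filter beyond 1 count its adjusted p in that test was 0.013, and in DESeq2 0.0366, both past the threshold. Gm43188, also in intron 1, had 2.55, 7.89, 7.34 and 6.11 CPM against 13.1, 13.7, 12.9 and 14.0 CPM, with no overlap (1.16 ± 0.38 SE, adjusted p = 0.175 in the same edgeR test). Gm43018 had 12.2, 10.2, 9.26 and 11.2 CPM against 19.5, 27.0, 24.5 and 9.62 CPM, with Tbx1-/- library 4 inside the parental range (0.92 ± 0.32 SE).

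In intron 4, Gm42992 had 28.7 ± 7.76 and 45.7 ± 12.3 CPM in parental and Tbx1-/- libraries, with overlapping groups (log2 fold change 0.68 ± 0.23 SE). Gm42441, at 3.63 ± 1.04 and 6.35 ± 1.01 CPM, did not overlap between groups but was low (0.80 ± 0.52 SE). C230071H17Rik had a log2 fold change of 0.87 ± 0.34 (SE), 2610011E03Rik of 0.49 ± 0.35 and Gm42440 of 0.25 ± 0.46, the last turning to -0.06 without parental library 3. The antisense gene 4930563F08Rik, whose last exon overlaps C230071H17Rik on the other strand, had 11, 7, 20 and 5 counts against 39, 37, 10 and 35 (1.76 ± 0.67 SE, adjusted p = 0.272 in edgeR's quasi-likelihood test). Of the antisense genes that were tested, 2810432F15Rik was near 0 and 4930563F08Rik was not, each with a large error.

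The genes below the filter differed in direction. Gm42591, in intron 5, had 11, 4, 9 and 2 counts in parental libraries and 4, 2, 0 and 0 in Tbx1-/- libraries, the one same-strand gene with fewer counts in the Tbx1-/- group. Gm42439, antisense in intron 4, had 0, 0, 11 and 3 counts against 30, 12, 5 and 0. Gm43186, at the very start of intron 1, had 9, 2, 2 and 1 counts against 11, 4, 15 and 4. Gm42996 had 42 counts in all 8 libraries together, Gm43019 had 19 and Gm42438 had 12. Gm27266, annotated as an rRNA, had 0 counts in every library, which allows up to 0.479 to 0.825 CPM depending on the library.

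**Figure D2:**
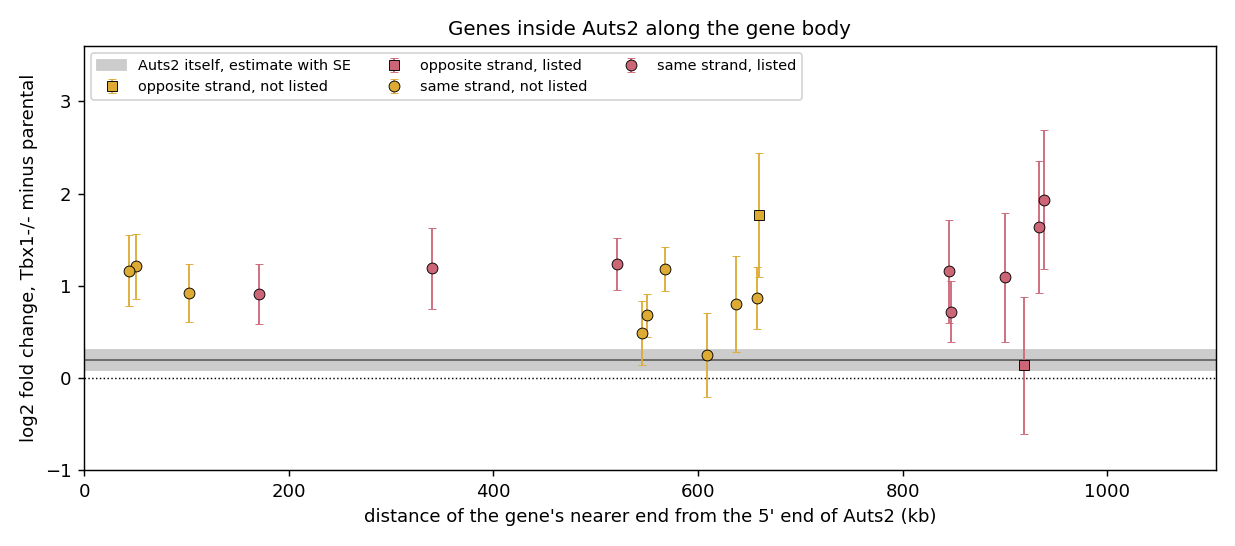
Log2 fold change (Tbx1-/- minus parental, with SE) of the 19 tested genes inside Auts2, against the distance in kb from the 5′ end of Auts2; circles are same-strand and squares opposite-strand genes, coloured by whether they are among the listed genes, and the grey band is the estimate of Auts2 with its SE. All 17 same-strand points lie above the Auts2 line at 0.19. Those of introns 2 and 5, the latter in the 3′ part of the gene, are all listed genes picked on this contrast.

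Values were positive in each of the 4 introns that hold tested same-strand genes. Every tested same-strand gene of introns 2 and 5 was a listed one picked on this contrast, so nothing is read from their sign. The unlisted Gm42591 of intron 5, below the filter, had fewer counts in the Tbx1-/- group. The median log2 fold change of tested same-strand genes was 1.04 for the 4 in intron 1, 1.19 for the 1 in intron 2, 0.80 for the 7 in intron 4 and 1.16 for the 5 in intron 5. Across all 17 the median was 1.09 and the range 0.25 to 1.93. No difference between introns was tested.

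The same-strand genes were then summed in each library and set beside Auts2. The 22 genes together held 161, 146, 146 and 205 CPM in parental libraries and 357, 275, 299 and 321 CPM in Tbx1-/- libraries, 164 ± 27.9 against 313 ± 34.8 CPM (SD, n = 4 each). The groups did not overlap, and the ratio of the means was 1.91, or 1.89 without Tbx1-/- library 4. The 8 listed same-strand genes gave 56.8 ± 23.1 and 124 ± 19.6 CPM, and the 14 that are not listed 107 ± 10.7 and 189 ± 26.1 CPM. Both subsets were thus higher in the Tbx1-/- libraries, with ratios of 2.18 and 1.76, the first of genes picked on this contrast.

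Relative to their host, the 22 genes had 62.2, 55.3, 46.9 and 62.7 counts per 100 Auts2 counts in parental libraries and 109, 87.2, 83.0 and 99.6 in Tbx1-/- libraries. The lowest Tbx1-/- library lay above the highest parental one, with means of 56.8 ± 7.41 and 94.7 ± 12.0 (SD, n = 4 each) and a ratio of 1.67. Of all tags assigned to Auts2 or to a same-strand gene within it, 38.4% (36.4% to 40.4%, exact Clopper-Pearson 95% interval), 35.6% (33.7% to 37.6%), 31.9% (30.2% to 33.7%) and 38.5% (36.6% to 40.5%) came from the inside genes in parental libraries 1 to 4. In Tbx1-/- libraries 1 to 4 the shares were 52.2% (50.7% to 53.8%), 46.6% (44.7% to 48.5%), 45.3% (43.7% to 47.0%) and 49.9% (47.8% to 51.9%). No parental interval overlapped a Tbx1-/- interval. These intervals treat tags as independent molecules, which tags without molecular identifiers are not. They cover counting error only, are too narrow even for it, and leave out the differences between libraries of a line. As 8 of the 22 genes were picked on this contrast, nothing is read from the gap between the intervals. The 14 unlisted genes alone had 31.29 to 46.16 counts per 100 Auts2 counts in parental libraries and 50.86 to 69.65 in Tbx1-/- libraries.

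**Figure D3:**
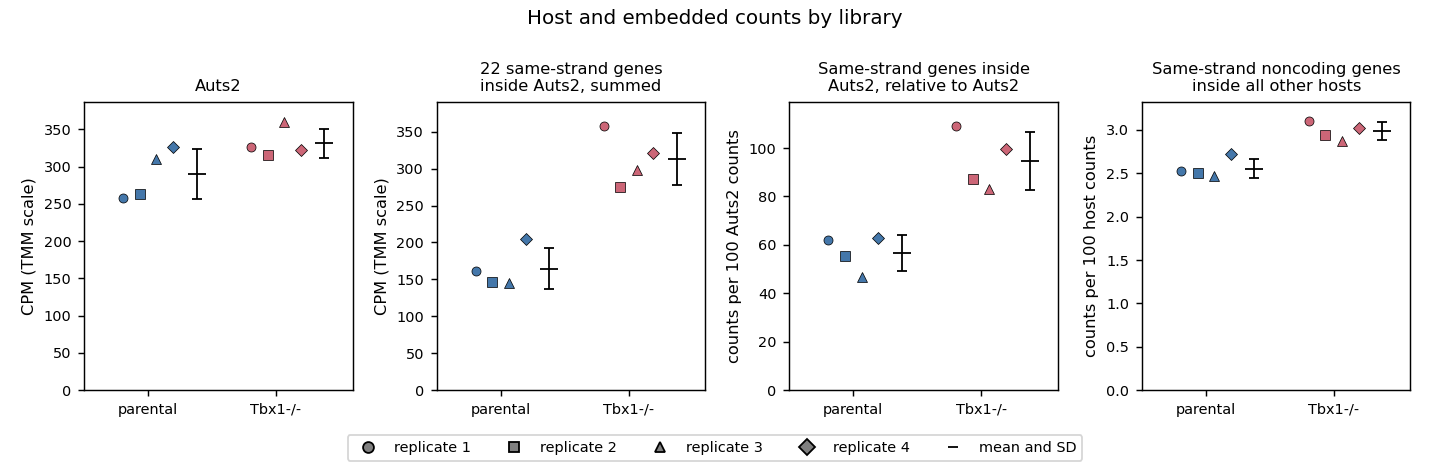
Values per library for Auts2 (CPM), the 22 same-strand genes inside it summed (CPM), those genes relative to Auts2 (counts per 100 Auts2 counts) and same-strand noncoding genes inside all other host genes (counts per 100 host counts), each axis from 0, with mean and SD beside each group. The groups overlap for Auts2 and are apart in the other 3 panels, with a ratio of means of 1.67 for Auts2 with the listed genes included (56.8 and 94.7) and 1.17 for all other hosts (2.55 and 2.99).

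The same values were taken for noncoding models inside other genes of the genome. Of 649 tested noncoding genes inside another protein-coding gene on its strand, 385 had a positive log2 fold change, and the median was 0.14. 3 of the 649 were called higher, where 0.745% of all tested genes were, so nothing is read from that count. On the opposite strand 124 of 246 were positive, with a median of 0.01. Of 629 such same-strand genes whose 465 hosts were also tested, 55.01% lay above their host, by a median of 0.08 (25th to 75th percentile -0.35 to 0.52). All 17 tested genes inside Auts2 lay above it, by a median of 0.90, but 8 of the 17 were picked on this contrast, and nothing is read from their excess. The 9 that are not listed also lay above Auts2, by a median of 0.67. They share a host and libraries with the listed genes, so they are not independent observations, and no test of Auts2 against the other hosts was made.

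A smaller difference in the same direction was present genome-wide. Without Auts2, same-strand noncoding genes inside host genes had 2.55 ± 0.112 counts per 100 host counts in parental libraries and 2.99 ± 0.0994 in Tbx1-/- libraries (SD, n = 4 each; p = 0.0286, two-sided exact permutation test, the smallest p that 4 against 4 allows). The ratio was 1.17, against 1.67 at Auts2 with the listed genes and 1.53 with the unlisted ones alone. TEC genes outside Auts2 took 0.391% of all counts in parental and 0.460% in Tbx1-/- libraries. Same-strand inside genes, without Auts2, took 0.483% and 0.550%. Both had the same exact permutation p. With the TEC genes inside Auts2 counted in, the TEC shares were 0.407% and 0.492%. As these include listed genes picked on this contrast, their p is not read. The adjustment ran over all 4 related measures and gave an adjusted permutation p of 0.0286 for each of the others. The part that this genome-wide difference has in the values at Auts2 was not tested.

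9 host genes had at least 5 tested genes inside, and Auts2 had the most. Its median of 1.09 includes the listed genes, while the 9 unlisted same-strand genes had a median of 0.87. Pcdh7, a protocadherin gene also on chromosome 5, had 10 of 10 inside genes positive, with a median log2 fold change of 0.81 and a host value of 0.21 ± 0.15 (SE). Ldb2, a LIM-domain-binding cofactor gene on the same chromosome, had 5 of 6 positive, a median of 0.83 and a host value of 0.38 ± 0.18. Tcf12, a basic helix-loop-helix transcription factor gene on chromosome 9, had 5 of 5 positive and all 5 above the host, with a median of 0.53, a lowest value of 0.47 and a host value of 0.34 ± 0.12. Magi3, a scaffold protein gene on chromosome 3, had 9 of 10 positive with a median of 0.33, and Camk2d, a calcium/calmodulin-dependent kinase gene on that chromosome, 2 of 5 with a median of -0.02. The protein-coding genes of chromosome 5 had a median of 0.02 (725 genes), within the range of the 20 chromosomes examined (-0.04 to 0.02). The 102 tested same-strand noncoding genes inside other hosts of chromosome 5 had a median of 0.27, with 65 positive, a subset looked at after the values of Pcdh7 and Ldb2 were seen. Medians of such genes by chromosome ran from -0.37 (chromosome 14, 11 genes) to 0.75 (chromosome 18, 11 genes). Chromosomes 12, 15, 18 and 19 had higher medians than chromosome 5.

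**Figure D4:**
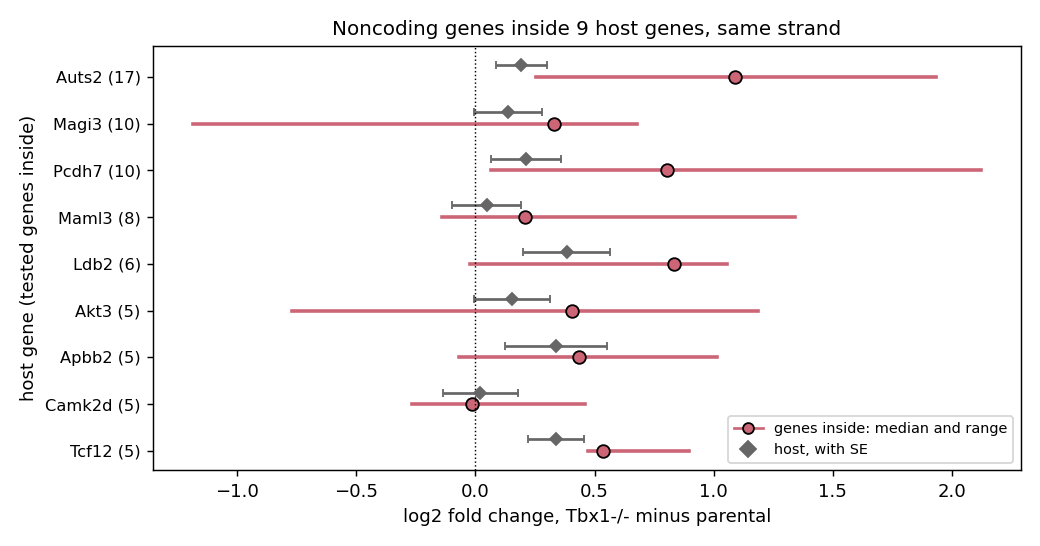
Hosts with at least 5 tested same-strand noncoding genes inside them (number in brackets), with the median (circle) and range (line) of the log2 fold change of the inside genes and the value of the host with its SE (diamond). The median of Auts2 is 1.09 with the listed genes included (0.87 for the unlisted ones), near 0.83 for Ldb2 and 0.81 for Pcdh7, and the ranges of Auts2 and Tcf12 both stay above their hosts.

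Outside the gene body few genes had counts. Of 18 annotated genes within 1000000 bases of either end, 7 had any count, 2 were tested and 0 were called. With 1.42% of all tested genes called, nothing is read from 0 of 2. Galnt17, a polypeptide GalNAc-transferase gene downstream of Auts2, had 48, 24, 12 and 19 counts in parental libraries and 7, 9, 20 and 8 in Tbx1-/- libraries (log2 fold change -1.07 ± 0.68 SE, adjusted p = 0.587 in edgeR's quasi-likelihood test). The pseudogene Gm10051 had a log2 fold change of -0.40 ± 0.63 (SE). Of the genes below the filter, Caln1, a calneuron gene, had 22 counts in all, Gm43165 had 32, Gm43166 had 17 and Gm29681 had 12. Neither of the tested neighbours had an unadjusted p under 0.05, and 0 were called by DESeq2 or limma-voom. DESeq2 gave no adjusted p for Galnt17.

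The proteins that AUTS2 is known to work with were then examined through 5 lists, and 0 of their 64 tested genes were called. Over all tested genes 1.42% were called, so a set of 64 can easily hold none, and nothing is read from the 0. Of the 13 partners in the AUTS2-containing Polycomb complex, 5 had a positive and 8 a negative log2 fold change (median -0.05, and 3 with an unadjusted p under 0.05). Pcgf5, which encodes the ring-finger subunit that defines the complex, had 35.6 ± 7.54 and 55.3 ± 17.4 CPM in parental and Tbx1-/- libraries (SD, n = 4 each), and its adjusted p was 0.219 in edgeR's quasi-likelihood test with a log2 fold change of 0.63 ± 0.22 (SE). Its alternative subunit gene Pcgf3 had 0.22 ± 0.17. Pcgf3 and Pcgf5 are named for that role, after their values were seen. Csnk2a1 and Csnk2a2, the catalytic subunits of casein kinase 2, had -0.28 ± 0.11 and -0.06 ± 0.13.

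The remaining lists held no called gene either. Of 18 other PRC1 subunit genes 7 were positive and 11 negative (1 with an unadjusted p under 0.05), with Mga, a subunit of the PCGF6 complex, at -0.09 ± 0.11 and Phc2, a polyhomeotic subunit, at 0.00 ± 0.14. Of 11 tested PRC2 genes 4 were positive and 7 negative (0 with an unadjusted p under 0.05), with the histone-binding subunits Rbbp4 at 0.14 ± 0.11 and Rbbp7 at -0.13 ± 0.11. Of 19 genes of RAC1 and actin signalling 11 were positive and 8 negative (5 with an unadjusted p under 0.05), with Cdc42 at 0.06 ± 0.11. Of the 3 paraspeckle protein genes 1 was positive and 2 were negative (0 with an unadjusted p under 0.05), with Sfpq at -0.01 ± 0.09 and Nono at -0.17 ± 0.11. The values are log2 fold changes with SE. No list had a called gene with DESeq2, limma-voom, another scaling or another filter, nor when 1 library was left out. The median over all tested genes was 0.00, and 1584 of all 13280 had an unadjusted p under 0.05.

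The makeup of the cultures bears on a gene best known from neurons. The 22 neural markers summed to 310.2 to 384 CPM in parental and 287 to 415 CPM in Tbx1-/- libraries. The adhesion molecule gene Ncam1 held most of this sum (244 and 275 CPM on average), and the other 21 summed to 75.6 to 111 and 52.2 to 97.0 CPM. 11 were tested, 3 were positive and 8 negative (median -0.63), 0 were called, and Neurog1, a neurogenic transcription factor gene, had 0 counts. Otx2, a forebrain transcription factor gene, had all 4 Tbx1-/- libraries below the parental ones (log2 fold change -1.67 ± 0.60 SE). The 16 precardiac mesoderm markers were all tested, at 1606 to 2278 and 1579 to 1724 CPM, and 5 were positive and 11 negative (median -0.62, 9 with an unadjusted p under 0.05). The cardiac transcription factor gene Gata6 was called higher and the growth factor gene Fgf10 lower. Isl1 and Hand1, transcription factor genes of cardiac progenitors, had all Tbx1-/- libraries below the parental ones without being called. Hand2, another such gene, had all Tbx1-/- libraries above them (log2 fold change 0.40 ± 0.10 SE), also without being called. Of the 16, 2 had all Tbx1-/- libraries above the parental ones and 3 all below. Over all 13280 tested genes, 463 (3.49%) lay above in this way and 536 below. The share called over all tested genes, to be set beside the calls in each marker list, was 1.42%. Endothelial and blood markers summed to 526 to 819 CPM in parental and 1099 to 1798 CPM in Tbx1-/- libraries, and their called genes were the embryonic globins Hba-x, Hbb-bh1 and Hbb-y. Without these 3 globins the sums overlapped, at 410.2 to 663 and 499.8 to 940 CPM. Endoderm markers summed to 247 to 459 and 242 to 277 CPM (Foxa2 and Krt18 called lower), and pluripotency markers to 45.3 to 75.1 and 66.7 to 100.5 CPM (Klf2 called higher). Klf2 alone had 19.8 CPM on average in parental and 41.3 CPM in Tbx1-/- libraries. Of the 7 tested pluripotency markers, Klf2 included, 5 were positive and 2 negative. The splits of the marker sums, the Klf2 means, and the genes Ncam1, Otx2, Isl1, Hand1 and Hand2 were chosen after the values were seen. The part of these differences in cell makeup in the values at Auts2 was not tested.

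Lastly, the genes whose levels followed Auts2 most closely across the 8 libraries were listed from the 9025 tested genes with a mean of at least 10 CPM. By Pearson correlation of log2 CPM they were Morc2a (0.965), Atxn2l (0.941), Mfsd1 (0.941), Poc1b (0.940) and Slc35e1 (0.937). After each line's mean was removed they were Morc2a (0.956), Ctbp1 (0.955), Snx19 (0.948), Rab28 (0.944) and Rbbp5 (0.941). Morc2a was the one gene in both groups of 5, and no noncoding gene inside Auts2 was in either. Inside genes with a mean under 10 CPM, most of the listed ones among them, were not ranked and could not appear. The values share the depth and scaling of 8 libraries and are the highest out of all genes ranked, so they are a description with no test.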

How the data were processed

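RNA from 4 parental and 4 Tbx1-/- cultures was measured with QuantSeq. The authors deposited raw counts per gene and library, counted on the forward strand per the table's name. STAR, featureCounts and build mm10 are named in the submitters' processing notes; versions, annotation, read filters and any treatment of multiply mapped tags are not given in the sources used here. Of 55487 gene identifiers, 54435 matched GENCODE M21 with their version, including all 45 of the Auts2 neighbourhood.

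Counts were filtered with filterByExpr, scaled by TMM and tested with edgeR 4.0.16 (R 4.3.3; quasi-likelihood, Benjamini-Hochberg over 13280 genes holding 99.46% of counts, threshold 0.05). CPM use TMM-scaled sizes. The SE of an edgeR log2 fold change was taken as its absolute value over the square root of the test's F statistic. On simulated counts for this comparison (13280 genes, 200 changed by 2 on the log2 scale) the fit recovered 196 and called 9 unchanged genes. The changed genes were taken from those above a floor of mean counts, and all genes had the same dispersion. Recovery of smaller changes, or of genes with few counts, was not measured. DESeq2 1.42.0, limma 3.58.1 (voom), other scalings and filters, a replicate block and leaving out each library were alternatives. Libraries within a line differed by more than sampling noise (chi-square per degree of freedom of at least 7.04).

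The named genes were all listed members, the other genes inside Auts2 or within 1000000 bases of it with at least 10 counts in all, of each list the called genes and the most abundant ones, the 5 genes most like Auts2 by each measure, and Tbx1. Members and lists were chosen with earlier results of these data known.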

Additional observations from a re-analysis of the deposited data

Results flagged for a closer look

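Across 56 groups of 4 libraries (the tested genes of the locus and its summed values), 4 had 1 library far from the other 3 by Dixon's ratio at the 95% level, and chance gives about 1 in 20 groups. In parental library 4, Gm42989 stood at 21.5 CPM, against 7.89 to 9.27 CPM in the other 3. The same library held the sum of the 8 listed same-strand genes at 91.2 CPM, against 41.5 to 48.4 CPM. Gm42993 stood at 59.9 CPM in Tbx1-/- library 4, against 39.4 to 42.8 CPM. 2610011E03Rik stood at 28.2 CPM in Tbx1-/- library 1, against 11.1 to 13.7 CPM in the others.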

How the results depend on the processing

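The count of called genes was 188. It was 439 with no filter beyond 1 count and 399 with DESeq2, and 103 to 235 when 1 library was left out, with the lowest values without parental library 2 (103), parental library 3 (104) and Tbx1-/- library 3 (116). The listed genes called numbered 1 and ranged from 0 to 2 when 1 library was left out: 0 without parental library 1, 2 or 3 or Tbx1-/- library 1, 3 or 4, and 2 without parental library 4, when Gm42989 joined Gm42993. Genes inside Auts2 that are not listed also had 1 call, 2 with no filter, 2 with DESeq2 (Gm43187 added in both) and 0 to 2 when 1 library was left out (0 without parental library 2 or 3 or Tbx1-/- library 1, and 2 without Tbx1-/- library 4, when Gm43018 was added). The causes were not tested.

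The replicate block gave 234 calls, 172 of them shared with the fit without it, and the same calls inside Auts2. Same-numbered libraries had correlated deviations of -0.0331 to 0.102, and 3 of 8 libraries correlated best with their own number, so the numbers were not taken as pairs.

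The log2 fold change of Auts2 was 0.14 to 0.25 over all alternatives. Same-strand genes inside Auts2 with a positive value numbered 17 to 18 when 1 library was left out. Those were all that were tested, except without parental library 3 (17 of 18). Other settings gave 17 of 17 tested, or 21 of 22 with no filter beyond 1 count. The ratio of the summed CPM of the same-strand genes was 1.82 to 2.08, and that of their counts per 100 Auts2 counts 1.58 to 1.74. Signs turned for Gm42440 (-0.0622 without parental library 3, up to 0.556 without Tbx1-/- library 4), Sfpq (0.0179 by library size alone, and -0.0575 to 0.0178 when 1 library was left out), Cdc42 (-0.0211 to 0.123) and Csnk2a2 (-0.146 to 0.0291), both without Tbx1-/- library 3, and Phc2 (-0.0059 with no filter, -0.0603 to 0.132 when 1 library was left out). At this depth the genes below the filter, Gm42591 among them, give counts only.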
